A study of Mus musculus with 5 samples.

Results

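The genes described here encode subunits of the mitochondrial ATP synthase, and their transcripts were counted in ribosome-bound RNA from the midbrain of mice with and without floxed alleles of Esrrg, which encodes the nuclear receptor ERRγ. They are the 10 gene symbols Atp5a1, Atp5b, Atp5c1, Atp5d, Atp5g3, Atp5h, Atp5j, Atp5k, Atp5l and Atp5o, which stand on 11 of the 53700 gene rows in the table. The additional row is a second Atp5o entry with no counts, so 10 rows were among the 29407 rows with at least 1 count. The list was drawn up from subunit function and from the observation that its genes differed between the groups in opposite directions, so the fold changes, errors and calls given below for these 10 genes describe them and are not independent evidence that they differ.

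Esrrg WT and Esrrg Flox mice were both of the C57BL/6 strain, aged 4 months, carried the Cre-dependent L10a transgene and had received AAV:THCre in the midbrain, with tissue taken 1 month after the injection. BAC-TRAP (translating ribosome affinity purification) recovers RNA on ribosomes that carry the tagged protein L10a, which was switched on here by Cre under a tyrosine hydroxylase promoter to reach dopaminergic neurons. The virus also deletes an exon of the floxed Esrrg alleles, whereas Esrrg WT mice have the virus and the tag but intact alleles. Each library pooled several mice. The WT group had 3 libraries, numbered 2, 3 and 4, and the Flox group had 2, numbered 2 and 4. In such bulk samples, fewer cells of a type and less RNA per cell cannot be told apart.

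ATP synthase is the enzyme of the inner mitochondrial membrane that uses the proton gradient built by the respiratory chain to make ATP. Its F1 head projects into the matrix and holds the catalytic beta subunits alternating with alpha subunits, around a central stalk of gamma, delta and epsilon. Protons cross the membrane at a rotating ring of c subunits, a peripheral stalk keeps the head from turning with the ring, and small membrane subunits help to join the enzymes into dimers along the cristae. Estrogen-related receptors bind DNA at an extended half-site and are known as activators of genes for oxidative phosphorylation.

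Promoter sequences are shown first for Atp5b and Atp5l, which lay at the opposite ends of the difference between the groups. They are also shown for Atp5g3 and Atp5k, which with Atp5l were the subunit genes that held AAGGTCA, a short form of the receptor half-site. NRF-1 and GABP are other known regulators of respiratory genes. Each sequence is the stretch of 250 bases before the RefSeq transcription start on assembly GRCm38.p6, at chr10:128083057-128083306 (plus strand) for Atp5b, chr2:73911327-73911576 (minus strand) for Atp5g3, chr5:108434400-108434649 (minus strand) for Atp5k and chr9:44920743-44920992 (minus strand) for Atp5l. Capitals mark the motifs searched, on either strand. AAGGTCA, read as TGACCTT on the other strand, is a short form of the receptor half-site, and the bases beside it were not searched. The others were CCAAT (the box bound by NF-Y, read as ATTGG), CGCATGCG (the palindromic core of the NRF-1 motif) and CCGGAAGT (ETS factors including GABP).
Atp5b: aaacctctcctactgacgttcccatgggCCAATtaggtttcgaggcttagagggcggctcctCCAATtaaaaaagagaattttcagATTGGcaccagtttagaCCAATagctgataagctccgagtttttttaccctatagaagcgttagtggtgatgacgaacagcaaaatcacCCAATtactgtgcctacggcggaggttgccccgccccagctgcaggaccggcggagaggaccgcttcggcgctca
Atp5g3: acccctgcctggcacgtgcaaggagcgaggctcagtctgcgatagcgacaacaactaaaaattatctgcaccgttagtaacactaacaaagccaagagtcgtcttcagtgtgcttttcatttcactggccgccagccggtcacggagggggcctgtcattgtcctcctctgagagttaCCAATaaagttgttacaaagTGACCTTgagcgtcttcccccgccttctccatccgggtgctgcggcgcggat
Atp5k: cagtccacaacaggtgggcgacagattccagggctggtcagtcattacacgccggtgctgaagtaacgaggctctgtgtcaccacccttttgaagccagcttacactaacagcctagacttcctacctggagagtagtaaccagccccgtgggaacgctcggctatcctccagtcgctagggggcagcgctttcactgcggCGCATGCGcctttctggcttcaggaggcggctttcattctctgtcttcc
Atp5l: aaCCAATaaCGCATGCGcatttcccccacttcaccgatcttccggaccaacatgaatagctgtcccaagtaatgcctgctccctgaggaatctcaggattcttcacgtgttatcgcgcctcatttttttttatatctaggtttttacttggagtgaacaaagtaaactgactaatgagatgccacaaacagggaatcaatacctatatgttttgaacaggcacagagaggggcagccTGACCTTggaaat

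AAGGTCA lay in the RefSeq windows (250 bases before to 50 bases after the start) of 3 of the 9 subunit genes with an entry. It lay in 5.38% of the 27025 genes of the whole promoter table. In Atp5g3 it began 52 bases and in Atp5l 13 bases before the start, both times on the strand opposite to the gene, and in Atp5k it began at base 24 counted from the start, outside the stretch printed. No match in the printed sequences overlapped another. Atp5b, the subunit gene with the lowest value in Flox relative to WT, had no AAGGTCA in its window but 5 CCAAT boxes. CCAAT was present in 5 of the 9 genes and in 41.1% of all genes in the table, so it is a common sequence. The NRF-1 core was found in 3 of the 9, Atp5j, Atp5k and Atp5l, against 2.07% of all genes. This core was adopted after a longer form of the motif had been searched, which matched fewer of the subunit genes, Atp5k alone, and a smaller share of all genes, so the count for the core was not chosen blind to the sequences. The ETS motif was found in Atp5h alone, against 4.31% of all genes. Among the other ATP synthase and assembly genes, AAGGTCA was found in 2 of 12 genes with an entry, namely Atp5e and Atpif1. The log2 fold changes of Flox against WT, described below, were 0.27 for Atp5g3, 0.31 for Atp5k, 0.56 for Atp5l, 0.30 for Atp5e and 0.21 for Atpif1, all above 0 as counted, and between -0.06 and 0.29 once the length trend was removed. As counted, 6 of the 10 subunit genes and 10 of the 14 other genes with an adjusted p were above 0. They include Atp5o (0.35) and Usmg5 (0.30), which had no AAGGTCA. Whether the motif goes with the difference was not tested. A match says only that the letters are in the window. No promoter entry was matched for Atp5a1.

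The libraries held between 20635855 and 23105058 counts assigned to genes, and the 10 subunit genes together took between 0.621% and 0.642% of them in WT and 0.580% and 0.588% in Flox. A count of 0 at this depth allows a level of up to 0.145 CPM, a limit that covers counting error only. Normalized counts below are counts divided by the size factor of the library. Summed over the 10 genes, they overlapped between the groups, from 133505.7 to 142521.2 in WT against 127455.9 and 133581.9 in Flox. Summed markers of dopaminergic neurons (11 of 11 detected) ran from 51078.2 to 60870.8 normalized counts in WT and from 52075.4 to 54810.4 in Flox, so the labelled cell type was present in both groups. Of these 11 markers 9 had a log2 fold change below 0, with a median of -0.15, and both Flox libraries lay below WT without overlap in 4 (22.5% of all genes tested) and above in 2 (19.9%). Summed microglial markers (12 of 12 detected) ran from 1834.1 to 3602.4 in WT and from 6499.7 to 14590.6 in Flox, and endothelial markers (8 of 8 detected) from 127.8 to 288.4 and from 299.7 to 770.4. Both Flox libraries were above WT without overlap in 11 of the 12 microglial and 4 of the 8 endothelial markers, and the sums of both lists were highest in Flox replicate 4. Summed astrocyte markers (9 of 9 detected) ran from 74828.4 to 109196.8 in WT and from 78872.5 to 102552.7 in Flox. Oligodendrocyte markers (8 of 8 detected) ran from 110409.8 to 163433.5 and from 125825.7 to 149719.4. Both sums overlapped between the groups and exceeded the dopaminergic sum in every library, so RNA of other cells was present as well. Sums over different markers do not give shares of cells. The part of these cells in the values below was not tested.

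The deleted gene was checked at the level of whole-gene counts. Esrrg had 1762.6, 1642.7 and 1725.6 normalized counts in the WT libraries and 1504.4 and 1170.1 in the Flox libraries, with no overlap between the groups. Its difference (log2 fold change -0.35 ± 0.133 SE) had an adjusted p of 0.0753 in DESeq2, and reads outside the deleted exon still count for the gene. The related receptors Esrra (-0.20) and Esrrb (-0.56) had adjusted p-values of 0.358 and 0.0664 in DESeq2.

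Within the enzyme, transcripts of the alpha, beta and gamma subunits were lower in Flox and those of OSCP and of subunits e and g were higher, in each case without overlap between the groups. The remaining 4 genes overlapped. Over the 10 genes the log2 fold change of Flox against WT ran from -0.51 (Atp5b) to 0.56 (Atp5l), with a median of 0.12, while the median over all 15724 genes tested was -0.0063. In DESeq2, 3 of the 10 genes had an adjusted p under 0.05, with Atp5b lower and Atp5l and Atp5o higher. Over all genes tested 8.25% passed this threshold, 4.20% as higher and 4.05% as lower. The genes were listed with this contrast known, so nothing is read from the counts of calls. None of the 10 passed it together with the fold change of at least 1.5 that the study's methods ask for, as 3.18% of all genes did; 6 of the 10 had an unadjusted p under 0.05 in DESeq2 (20.3% of all genes) and 5 in edgeR (23.0%). Both Flox libraries lay above all WT libraries in 3 of the 10 genes (19.9% of all genes tested) and below them in 3 (22.5%). With TMM scaling the 3 calls (8.36% of all genes) were 1 higher and 2 lower. After removal of the length trend described below 2 genes were called (6.34% of all genes), both lower. With the replicate number as a block 2 were called (3.67%), with the GC trend removed 5 (8.36%), and in edgeR 0 of 10 (1.42%).

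**Figure D1:**
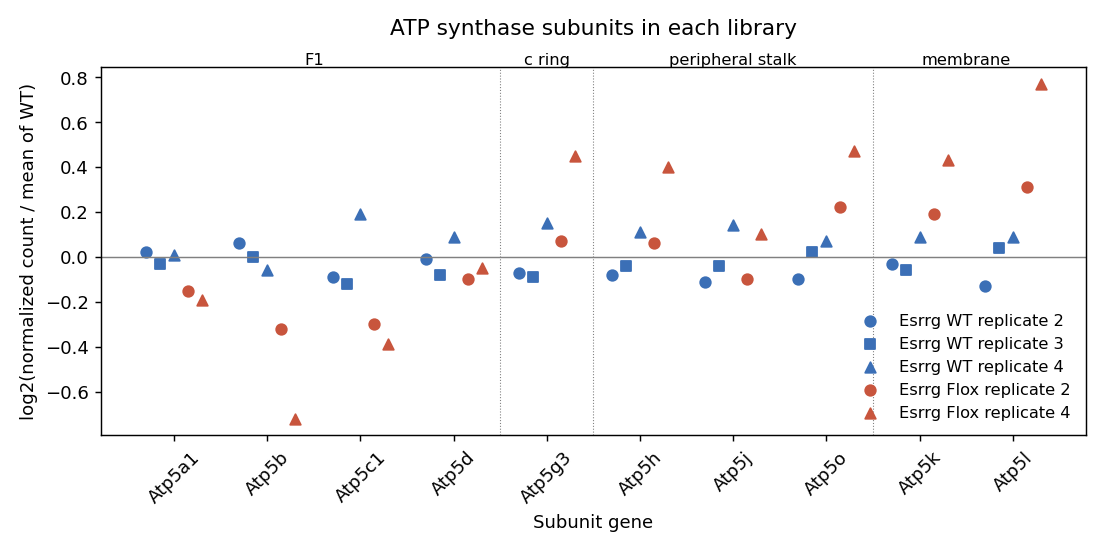
Normalized count of each ATP synthase subunit gene in each library, as log2 of its ratio to the mean of the Esrrg WT libraries (y axis), with genes grouped by their place in the enzyme (x axis). Blue points are the 3 Esrrg WT libraries and red points the 2 Esrrg Flox libraries, both below WT for Atp5a1, Atp5b and Atp5c1 and both above for Atp5o, Atp5k and Atp5l.

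In the catalytic head, Atp5b (ENSMUSG00000025393.13, chromosome 10) encodes the beta subunit, which carries the sites where ATP is made. It had 38174.3, 36664.7 and 35305.6 normalized counts in the WT libraries and 29313.0 and 22349.6 in the Flox libraries. Every Flox value lay below every WT value, and the Flox libraries differed more from each other than the WT libraries did. The means were 36714.8 ± 1435.0 (SD, n = 3) in WT and 25831.3 ± 4923.8 (SD, n = 2) in Flox, a log2 fold change of -0.51 ± 0.124 (SE, 95% interval -0.75 to -0.26), which is a difference of -29.6%. Without Flox replicate 4 it was -0.33, and the adjusted p under 0.05 was lost there, without WT replicate 2 (-0.48) and in edgeR (-0.51). No annotated gene overlaps the exons of Atp5b in GENCODE M21.

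Atp5a1 (ENSMUSG00000025428.16, chromosome 18) encodes the alpha subunit, which alternates with beta in the head. It had 28914.6, 28042.4 and 28651.2 normalized counts in WT and 25795.1 and 24969.1 in Flox. The WT libraries lay close together, with a coefficient of variation of 1.57%, the lowest of the 10 genes, and both Flox libraries were below them. The log2 fold change was -0.17 ± 0.0863 (SE), a difference of -11.1%. Atp5a1 differed less than its partner Atp5b, and the ratio of Atp5a1 to Atp5b was 0.757, 0.765 and 0.812 in the WT libraries and 0.880 and 1.12 in the Flox libraries.

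Atp5c1 (ENSMUSG00000025781.15, chromosome 2) encodes gamma, the shaft that turns inside the head. Its normalized counts were 6999.8, 6881.7 and 8486.5 in WT and 6065.5 and 5695.3 in Flox. Flox lay below WT, although WT replicate 4 stood well above the other WT libraries. The log2 fold change was -0.34 ± 0.120 (SE), and with a coefficient of variation of 12% this was the most variable of the 10 genes in WT. It was short of an adjusted p under 0.05, among other settings also in edgeR (-0.34) and without WT replicate 2 (-0.39), 3 (-0.40) or 4 (-0.24). It passed with TMM scaling (-0.35), with the GC trend removed (-0.34) and with the length trend removed (-0.46). Without Flox replicate 4 the log2 fold change of Atp5c1 was -0.30, and without Flox replicate 2 it was -0.39.

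Atp5d (ENSMUSG00000003072.16, chromosome 10) encodes delta at the foot of the central stalk. It had 12310.7, 11749.7 and 13174.1 normalized counts in WT and 11554.6 and 12022.8 in Flox. The groups overlapped, and the log2 fold change was -0.07 (95% interval -0.26 to 0.12).

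In the c ring, Atp5g3 (ENSMUSG00000018770.10, chromosome 2) is one of the genes that encode the same mature c subunit behind different targeting sequences. It had 19965.8, 19781.9 and 23269.0 normalized counts in WT and 22026.5 and 28722.9 in Flox. Only Flox replicate 4 was above all WT libraries, and the log2 fold change of 0.27 ± 0.132 (SE) became 0.06 without it. Atp5g1, another c subunit gene and not among the 10, differed the other way, with 6908.1, 6747.2 and 7887.0 in WT and 5950.2 and 5585.9 in Flox. Its log2 fold change was -0.32 ± 0.108 (SE, adjusted p = 0.0452 in DESeq2), and it did not pass, among other settings, in edgeR, with the length trend removed (-0.24) or when any 1 of the 5 libraries was left out (-0.36 to -0.25). The ratio of Atp5g3 to Atp5g1 was nearly the same in the 3 WT libraries (2.89, 2.93 and 2.95) and higher in both Flox libraries (3.70 and 5.14). Removing the length trend brought the difference of this log2 ratio from 0.58 to 0.28, and the annotated principal transcripts of Atp5g1 run from 596 to 4715 bases, so its place in that trend is uncertain.

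In the peripheral stalk, Atp5o (ENSMUSG00000022956.12, chromosome 16) encodes OSCP, which ties the stalk to the top of the head. It had 1689.9, 1833.3 and 1902.3 normalized counts in WT and 2108.6 and 2508.1 in Flox. Neither Flox value overlapped the WT range, and the log2 fold change was 0.35 ± 0.122 (SE, 95% interval 0.11 to 0.59). Its adjusted p was under 0.05 in DESeq2, but not, among other settings, in edgeR, with TMM scaling (0.34), with the length trend removed (0.16), or without WT replicate 2 (0.30), WT replicate 3 (0.36) or Flox replicate 4 (0.22). Of its exonic bases in GENCODE M21, 47.9% are shared with the second Atp5o row, which runs into Donson, or with antisense genes. Reads on more than 1 gene were not counted, so the level of Atp5o may be understated, to a degree that was not tested.

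The other stalk genes overlapped between the groups. Atp5h (ENSMUSG00000034566.11, chromosome 11), for subunit d, had 11202.4, 11490.9 and 12762.9 normalized counts in WT and 12291.4 and 15547.9 in Flox. Here again the Flox library above WT was replicate 4, and the log2 fold change of 0.24 ± 0.124 (SE) was 0.05 without it. Atp5j (ENSMUSG00000022890.14, chromosome 16), for subunit F6, had 8316.7, 8717.0 and 9837.4 in WT and 8353.7 and 9580.3 in Flox. Both Flox values of Atp5j fell inside the WT range, with a log2 fold change of 0.0015 (95% interval -0.22 to 0.23). Of its exonic bases 12.7% are shared with Gabpa on the opposite strand.

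Among the membrane subunits, Atp5l (ENSMUSG00000038717.10, chromosome 9) encodes subunit g, which takes part in joining the enzyme into dimers. It had 1495.0, 1683.5 and 1740.0 normalized counts in WT and 2029.8 and 2794.5 in Flox. The groups did not overlap, and Flox replicate 4 was the higher of its group. The means were 1639.5 ± 128.3 (SD, n = 3) and 2412.1 ± 540.7 (SD, n = 2), a log2 fold change of 0.56 ± 0.148 (SE, 95% interval 0.27 to 0.85), or 47.1% higher. It was 0.30 without Flox replicate 4, where the adjusted p under 0.05 was lost, as it was without WT replicate 2 (0.49), in edgeR (0.56) and after removal of the length trend (0.29).

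Atp5k (ENSMUSG00000050856.17, chromosome 5) encodes subunit e, the neighbour of g in the membrane. It had 6820.7, 6660.6 and 7392.2 normalized counts in WT and 7917.6 and 9391.4 in Flox. The groups did not overlap, with a log2 fold change of 0.31 ± 0.112 (SE). Processed pseudogenes named after the 10 genes took few reads. The largest count was 36, for Atp5l2-ps in Flox replicate 4, and Atp5k-ps2 had at most 4 in any library. Reads that fit a gene and a pseudogene equally were counted for neither. These counts therefore cannot show how many reads a subunit gene lost in this way, which was not tested.

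The 2 Flox libraries differed from WT to unequal degrees. In 9 of the 10 genes both lay on the same side of the WT mean, the exception being Atp5j, and in 8 of these 9 replicate 4 lay farther from it than replicate 2. In 7 genes the libraries numbered 4 were the highest of their own group both in WT and in Flox. The shares of all genes with these patterns were not computed, so they are not read as particular to the subunits. Over the whole table, Flox replicate 4 differed from the WT libraries by a chi-square per degree of freedom of 43.4 to 50.3. For Flox replicate 2 the values were 12.3 to 29.5. Leaving out Flox replicate 4 left 0 of 10 genes with an adjusted p under 0.05 in DESeq2 (0.766% of all genes; 3 of the 10 with an unadjusted p under 0.05, as 8.00% of all genes) and leaving out WT replicate 2 also left 0 (2.15%; 5 unadjusted, against 12.7%). Without Flox replicate 2 there were 6 (10.8%), of which 5 were higher. A group left with 1 library takes its spread from the other group.

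Ratios between subunits within a library do not depend on how libraries are scaled. Atp5l stood to Atp5b as 0.0392, 0.0459 and 0.0493 in WT and as 0.0692 and 0.125 in Flox. The mean log2 ratio differed by 1.06, which restates the differences of the highest and the lowest of the 10 genes. This value was 0.64 without Flox replicate 4, 1.49 without Flox replicate 2 and 0.81 with the length trend removed. Atp5o stood to Atp5b as 0.0443, 0.05 and 0.0539 in WT and as 0.0719 and 0.112 in Flox. The ratio of Atp5c1 to Atp5b, by contrast, overlapped, from 0.183 to 0.240 in WT against 0.207 and 0.255 in Flox. A ratio shows unequal differences of its 2 genes and not which of them changed.

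**Figure D2:**
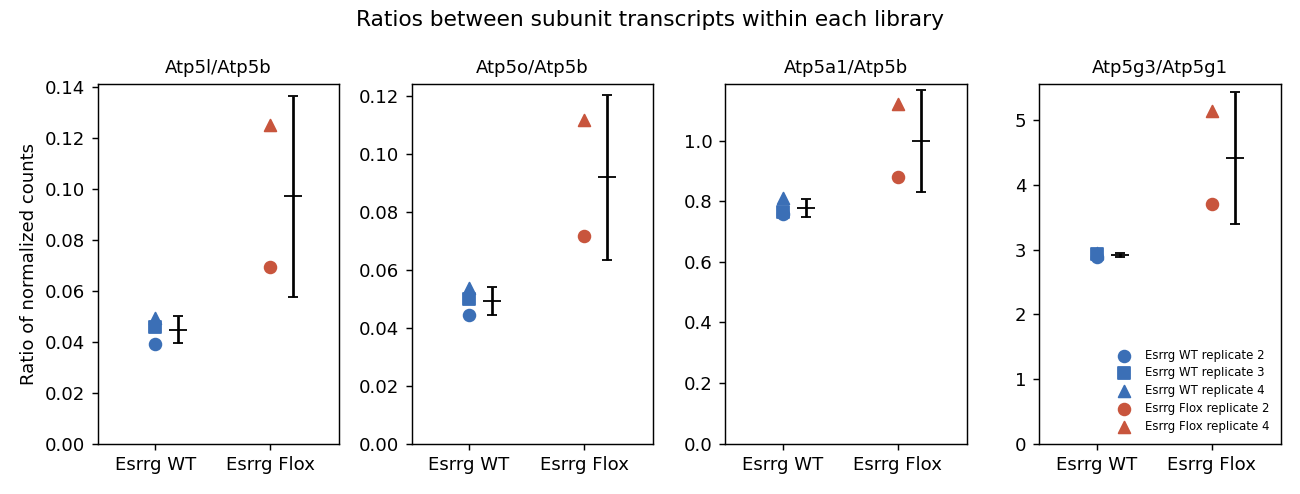
Ratio of normalized counts (y axis, from 0) between pairs of subunit transcripts in each Esrrg WT (blue) and Esrrg Flox (red) library, with the mean and SD of each group in black. All 4 ratios were higher in both Flox libraries than in any WT library, and the Flox libraries lay far apart.

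The direction of the difference went with transcript length. All 10 genes have a principal transcript shorter than the median of 2864 bases over the genes tested, from 371 bases (Atp5k) to 2471 (Atp5a1), with a median of 823.5. Over all genes tested, the median log2 fold change fell by length class: it was 0.33 below 600 bases, 0.20 from 600 to 1000, 0.08 from 1000 to 2000, -0.04 from 2000 to 4000 and -0.07 for longer transcripts. This slope was present with either Flox library alone, at 0.29 without replicate 4 and 0.36 without replicate 2 for transcripts below 600 bases. Across the 10 genes, which share their libraries, Spearman's rho between length and log2 fold change was -0.81, and across 24 nuclear ATP synthase and assembly genes it was -0.85, against -0.24 over all 15705 tested genes with a length. After the trend over all genes was removed from each library, rho was -0.65 across the 10 genes and -0.53 across the 24, against -0.01 over all genes. The 10 genes, which are also among the 24, were listed with their directions known, so nothing is read from the size of rho. Among the 24, Atp5g1 was placed at 4715 bases, although its shortest principal transcript has 596.

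With the length trend of each library removed, the values of the genes that had been higher moved towards 0, to unequal degrees. Atp5k moved from 0.31 to -0.02, Atp5g3 from 0.27 to 0.05, Atp5h from 0.24 to -0.01, Atp5o from 0.35 to 0.16 and Atp5l from 0.56 to 0.29. Atp5b stayed at -0.52, Atp5a1 moved from -0.17 to -0.14, and 3 genes moved down: Atp5c1 to -0.46, Atp5d to -0.24 and Atp5j to -0.19. The median of the 10 was then -0.08, against 0.004 over all genes, and 7 of the 10 had values below 0. The genes with an adjusted p under 0.05 in this fit were Atp5b and Atp5c1, 2 of 10, where 6.34% of all genes passed. What gave rise to the slope with length in these libraries was not tested.

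**Figure D3:**
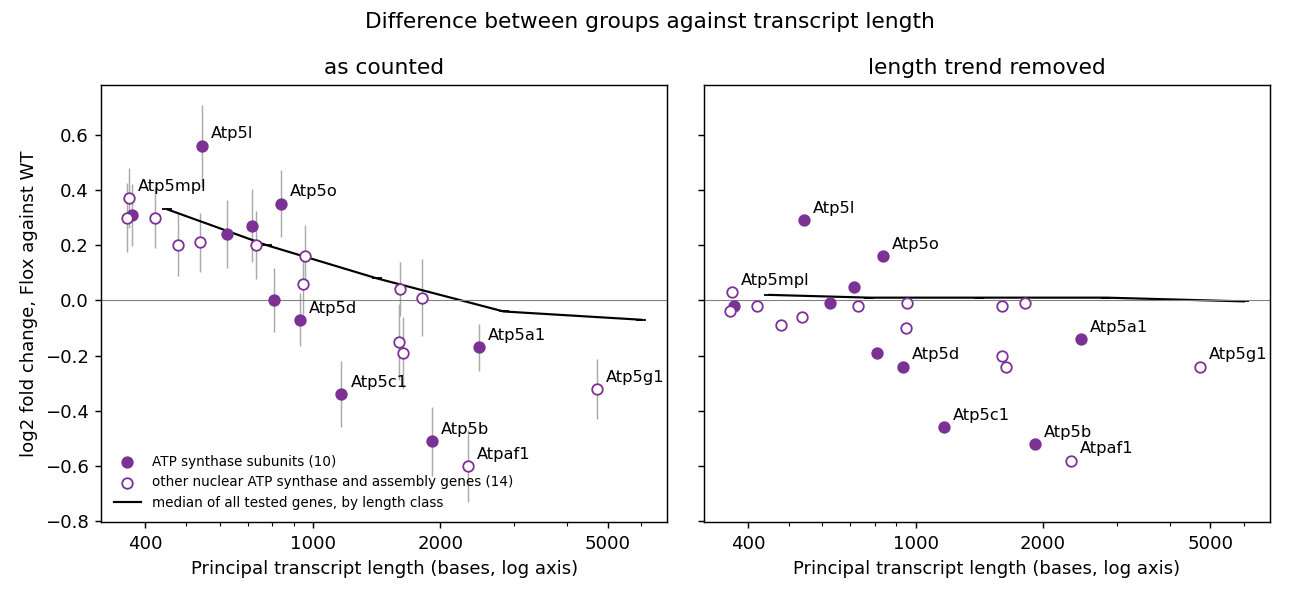
Log2 fold change of Esrrg Flox against Esrrg WT (y axis; bars in the left panel are SE) against principal transcript length (x axis, log scale) for the 10 subunit genes (filled) and 14 other nuclear ATP synthase and assembly genes (open), with the median of all tested genes per length class as a line. As counted (left) both the genes and the line slope downwards, and with the length trend removed (right) the line is flat, Atp5l and Atp5o are the highest points and Atp5b, Atpaf1 and Atp5c1 the lowest.

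The rest of the enzyme was read from a list of 16 further subunit, regulator and assembly genes, of which 15 had a count and 14 an adjusted p. In DESeq2, 3 of the 14 passed the threshold, with Atpaf1 and Atp5g1 lower and Atp5mpl higher, a share to be set against the 8.25% of all genes, and their median log2 fold change was 0.11. In edgeR only Atpaf1 passed. Atpaf1 encodes a chaperone that binds the beta subunit while the head is assembled. It had 1439.1, 1385.9 and 1707.3 normalized counts in WT and 986.6 and 1011.0 in Flox. Both Flox libraries were well below WT and close to each other. It fell by 0.60 on the log2 scale (SE 0.131, adjusted p = 4.7e-04 in DESeq2 and 0.0452 in edgeR), and it was past the threshold in all 11 alternatives run, among them removal of the length trend (-0.58) and of Flox replicate 4 (-0.62). No other assembly factor of the 5 passed: Atpaf2, the chaperone of alpha, was at 0.01, Tmem70 at -0.19, Fmc1 at 0.20 and Tmem242 at 0.06.

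Of the remaining subunits, Atp5mpl, a small proteolipid of the membrane part, had 3878.1, 4294.3 and 4116.9 normalized counts in WT and 4931.0 and 5654.5 in Flox. It was higher in Flox by 0.37 ± 0.108 on the log2 scale (SE, adjusted p = 0.0149 in DESeq2), and by 0.03 with the length trend removed. It did not pass in edgeR, nor without WT replicate 2 (0.33), WT replicate 3 (0.40) or Flox replicate 4 (0.26). Atp5e (epsilon, 0.30), Usmg5 (DAPIT, 0.30) and Atpif1, the inhibitor of ATP hydrolysis (0.21), did not pass, and in each of these genes the Flox values lay above the WT values. Atp5f1 (subunit b of the stalk, 0.04), Atp5j2 (subunit f, 0.16), Atp5g2 (subunit c, 0.20) and Atp5s (factor B, -0.15) did not pass either. Both Flox libraries lay above all WT libraries in 5 of the 14 other genes (19.9% of all genes tested). They lay below them in 4 (22.5%), among them Atp5s and Tmem70. By place in the enzyme, 4 of the 5 genes of F1 were lower in Flox, with a median of -0.17. Of the 3 c ring genes 2 were higher and 1 was lower, with a median of 0.20. All 4 stalk genes were at or above 0 with a median of 0.14, and all 5 small membrane subunits were higher with a median of 0.31. After the length trend was removed, these medians were -0.24, -0.02, -0.01 and -0.01. The parts include genes listed with their directions known, so nothing is read from these counts.

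The membrane subunits a and A6L are encoded and translated inside mitochondria. The subunit a gene, mt-Atp6, had between 0 and 14 counts per library and mt-Atp8 had 0 in all 5, so neither could be compared. Reads at more than 1 place were not counted, and what gave these low counts was not tested. Of the carriers that supply the enzyme, Slc25a5, an ADP/ATP carrier, was lower in Flox, with 7163.1, 6722.7 and 7994.6 normalized counts in WT and 5473.7 and 5331.4 in Flox. The log2 fold change was -0.43 ± 0.108 (SE, adjusted p = 0.00291 in DESeq2 and 0.0541 in edgeR; -0.54 with the length trend removed), and leaving out Flox replicate 4 (-0.42) or WT replicate 2 (-0.45) gave adjusted p-values of 0.149 and 0.0635 in DESeq2. The other ADP/ATP carrier, Slc25a4, had a log2 fold change of 0.0013 (95% interval -0.18 to 0.18), and the phosphate carrier Slc25a3 of -0.08 (-0.29 to 0.13).

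Levels of different subunits were compared per transcript length, as TPM (counts per kilobase scaled to the same total in each library) in the 3 WT libraries. Per principal transcript the order was Atp5g3 (2811.9 ± 187.7, SD), Atp5b (1835.4 ± 111.8), Atp5h (1808.2 ± 81.8), Atp5k (1793.7 ± 52.9), Atp5d (1275.0 ± 43.5), Atp5a1 (1105.4 ± 28.3), Atp5j (1058.4 ± 67.3), Atp5c1 (610.9 ± 56.8), Atp5l (288.3 ± 19.1) and Atp5o (206.5 ± 9.60). The WT ranges of Atp5b, Atp5h and Atp5k overlapped along this order, as did those of Atp5a1 and Atp5j, while the other neighbours were separate. The order depends on the length used. Per union of all annotated exons Atp5k came first at 1658.4 ± 53.8 TPM and Atp5l last at 37.4 ± 2.56, since the longest annotated Atp5l transcript has 6310 bases and its principal transcript 544. Atp5l and Atp5o had the 2 lowest levels on both scales, and both were higher in Flox.

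**Figure D4:**
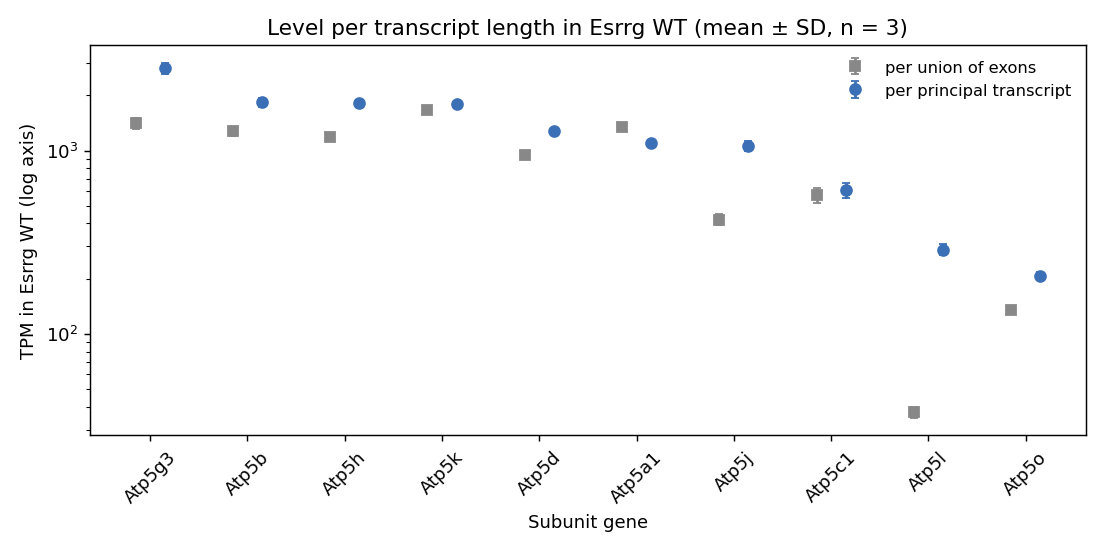
Level of each subunit transcript in Esrrg WT, as TPM (y axis, log scale; mean and SD of 3 libraries), per principal transcript (blue circles) and per union of exons (grey squares), with genes ordered by the former (x axis). Atp5g3 leads per principal transcript, and Atp5l and Atp5o are the lowest on both. The level of Atp5o may be understated, since reads on exonic bases shared with other genes were not counted.

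For the genes at the ends of the range, the genes whose pattern over the 5 libraries was most alike were looked up among 11521 genes with a mean of at least 100 normalized counts, by the root mean square difference of centred log2 values. Nearest to Atp5b were Mmp17 (0.0132), a membrane-bound metalloproteinase, Ift172 (0.0168), of intraflagellar transport, Slc35e1 (0.0205), Trak1 (0.0232), an adaptor that couples mitochondria to kinesin, and Syngr1 (0.0253), a synaptic vesicle protein. All 5 have principal transcripts of at least 4180 bases, longer than the 1916 of Atp5b. Nearest to Atp5l were Pam16 (0.0134), of the mitochondrial import motor, Cstb (0.0326), a protease inhibitor, Dnajc1 (0.0339), a co-chaperone, Hebp1 (0.0358), a heme-binding protein, and Ifrd1 (0.0419). Their principal transcripts ran from 596 bases (Pam16) to 5497 (Dnajc1), against 544 for Atp5l. Among the other 9 subunit genes the nearest to Atp5b was Atp5c1, at 0.189 and rank 2010, and the nearest to Atp5l was Atp5o, at 0.117 and rank 206. For Atp5l, Atp5k, Atp5g3 and Atp5h followed at ranks 459, 546 and 654, and Atp5b came last of the subunit genes at rank 11081. For Atp5b, Atp5l came last at rank 11181. Among 11521 genes compared over 5 libraries, closer genes outside the enzyme are likely for any gene, so nothing is read from their presence.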

How the data were processed

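Per the submitters' labels and the study's methods, poly(A)-selected RNA was sequenced without strand, and reads were trimmed (Trim Galore), aligned (STAR) and counted per gene (HTSeq-count). The deposited values are the authors' raw counts, not normalized. The methods name genome GRCm38 and the submitters' processing notes GRCm39, so gene coordinates are not given from the table. Reads in no gene (3.18% to 4.45%), in more than 1 gene (5.62% to 5.78%) or at more than 1 place (3.60% to 4.23%) are in no gene's count.

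IDs were named from GENCODE M21 (52147 of 53700 matched), which also gave transcript lengths (APPRIS principal) and overlaps. The 29407 rows with a count were fitted with DESeq2 (version 1.42.0, R 4.3.3; the study's tool, Wald test, two-sided, independent filtering and adjusted p threshold of 0.05), Esrrg Flox against Esrrg WT, with p-values adjusted over all genes by Benjamini-Hochberg. The 95% intervals are normal intervals from the SE. The alternatives were edgeR (version 4.0.16, quasi-likelihood), TMM scaling, a filter of 10 or more counts in 2 or more libraries, the replicate number as a block, per-library loess trends (span 0.3) on transcript length or GC content removed, and each library left out. Levels per principal transcript were added after the data were seen. The fits were also run on simulated data with equal spread in both groups and no deviating library. That run therefore does not cover the unlike Flox libraries seen here. Nothing in the labels names a shared batch for libraries of the same number, and p-values measure only the spread between these pools. All pairs of libraries differed by more than counting noise.

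The members, the other lists and the motifs were chosen with earlier results of these data known, and the NRF-1 motif was shortened to its core after the longer form had been searched. Genes named were the 10 subunits, the other ATP synthase and assembly genes, the ERR genes, the ADP/ATP and phosphate carriers, pseudogenes named after the 10, and the 5 genes with a mean of at least 100 normalized counts nearest to the lowest and to the highest subunit.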

Additional observations from a re-analysis of the deposited data

How the results depend on the processing

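Of 264 comparisons of single genes with their value under 11 alternatives, 201 kept direction and side of the threshold, 27 lost the threshold, 14 gained it and 22 changed sign. The number of the 10 subunits with an adjusted p under 0.05 was 3, against 0 in edgeR (5 with an unadjusted p under 0.05) and 5 with the GC trend removed, and it ranged from 0 to 6 when 1 library was left out. For the other ATP synthase genes it was 3, against 1 in edgeR and 1 with the length trend removed, and 1 to 4 with 1 library left out. The log2 difference of the Atp5l to Atp5b ratio ranged from 0.64 to 1.49 when 1 library was left out. The summed level of the 10 subunits in WT was 8977.8 TPM per union of exons (8847.7 to 9061.7 with 1 library left out), 11792.1 per longest transcript and 12793.6 per principal transcript, since the lengths differ.

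Libraries of the 2 groups share replicate numbers 2 and 4. With the number as a replicate block (without WT replicate 3) 2 subunits and 2 other genes passed, as 3.67% of all genes did, and Atp5o (0.36) and Atp5g1 (-0.36) no longer passed. The deviations of same-numbered libraries correlated at 0.15 and 0.11 in the 2 pairs. This is too few pairs to show whether the numbers mark a pairing, and none was assumed.

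The signs that changed were all of genes that had not passed the threshold. With the length trend removed these were Atp5h (-0.01), Atp5j (-0.19), Atp5k (-0.02), Atp5e (-0.02), Atp5f1 (-0.02), Atp5g2 (-0.02), Atp5j2 (-0.01), Usmg5 (-0.04), Atpif1 (-0.06), Atpaf2 (-0.01), Fmc1 (-0.09) and Tmem242 (-0.10). Atp5j was at -0.01 with TMM scaling, and under the block Atp5j was at -0.02 and Atpaf2 at -0.0032. With 1 library left out, Atp5j lay between -0.10 and 0.10, Atpaf2 between -0.06 and 0.08 (-0.04 without WT replicate 2 and -0.01 without WT replicate 3), and Atp5f1 was at -0.04 without Flox replicate 4. Each of the 10 subunit genes had at least 1419 counts in every library, so their error is set by the spread between libraries, of which the Flox group has 2.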
